A study of Mus musculus with 7 samples.

Results

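Cox7a2l was examined as a single gene whose signal was high in some embryonic mouse hearts and low in others. It was chosen by that pattern, selected on its normalized signal in these same 7 arrays, so its levels are given as a description and carry no test. By the naming rule, which reads the number in a target identifier as an NCBI mouse gene identifier, 1 of the 24048 targets on the array belonged to Cox7a2l (gene identifier 20463), and 7413 genes were named in all. The arrays held 4 hearts labelled Myc-null and 3 labelled wild-type, all placed by their titles at E13.5 (days of embryonic development), with 1 array for each sample; a further label gives a wider window of stages. The labels do not say how or in which cells Myc was removed, and give no strain background, sex, litter or number of hearts behind a sample. One label speaks of cardiac myocyte RNA, but the protocol describes whole hearts rinsed and placed in Trizol, with no separation of cells. In such samples, fewer cells of a type and less RNA per cell cannot be told apart.

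Cox7a2l, also called SCAF1 or COX7RP, encodes a mitochondrial protein related to the COX7A subunits of cytochrome c oxidase, the last enzyme of the respiratory chain (complex IV). It sits where complex III and complex IV join in respiratory supercomplexes, and holds the 2 enzymes together. In the heart, which draws most of its ATP from respiration, these complexes are abundant, and part of complex IV is found in such assemblies. The gene differs among inbred mouse lines, and C57BL/6 mice carry an allele for a shorter protein that is less able to join complexes III and IV.

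The deposited signals are mean intensities of the beads that carry a target's oligonucleotide, and the reference table lists 2 transcripts of Cox7a2l. Neither which of them the target reads nor whether its oligonucleotide matches this gene alone was checked here, so each value below is that of the target assigned to Cox7a2l. The stretch upstream of the annotated start is shown because Myc, which the Myc-null hearts lack by their labels, binds DNA at a known motif that can be looked for there. It is the RefSeq sequence of the 250 bases before the start, from the C57BL/6J reference (GRCm38.p6, chr17:83514334-83514583, minus strand), with a GC box (GGGCGG) in capitals.
Cox7a2l: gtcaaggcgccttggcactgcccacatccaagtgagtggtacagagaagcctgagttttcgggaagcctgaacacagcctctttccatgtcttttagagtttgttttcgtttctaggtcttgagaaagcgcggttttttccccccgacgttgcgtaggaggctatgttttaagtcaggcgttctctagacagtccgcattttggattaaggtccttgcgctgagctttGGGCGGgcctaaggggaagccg
It held 13 CpG dinucleotides, against a median of 6 over 32851 annotated promoter windows of the same length, and its GC content was 52.0%, against a median of 52.4%. The GC box was found once on the sense strand, and 32.7% of all such windows held it on either strand. The core E-box bound by Myc and Max, CACGTG, reads the same on both strands and was not found in this window, and 6.02% of windows held it. Nor were CCAAT (33.8% of windows), TATAAA (12.4%), CCGGAAG (6.91%) and AAGGTCA (4.08%) found on either strand. Their absence says only that these letters are not in this window, and the sequence is that of the reference and not of the hearts.

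Cox7a2l was high in 3 hearts and low in 4, and both genotypes held hearts of each kind. The deposited normalized signal was 110.6, 111.4, 1329 and 1581 in Myc-null hearts 1 to 4, against 62.4, 116 and 1353 in wild-type hearts 1 to 3. Myc-null 3, Myc-null 4 and wild-type 3 were the high arrays, and Myc-null 1, Myc-null 2, wild-type 1 and wild-type 2 the low ones, so the genotypes overlapped from end to end. The lowest of the high arrays was 11.4 times the highest of the low arrays, a gap of 3.51 on the log2 scale. Among the high arrays the signal varied 1.19-fold and among the low arrays 1.86-fold. The step was of similar size within each genotype, 11.9-fold between Myc-null 3 and Myc-null 2 and 11.6-fold between wild-type 3 and wild-type 2.

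**Figure D1:**
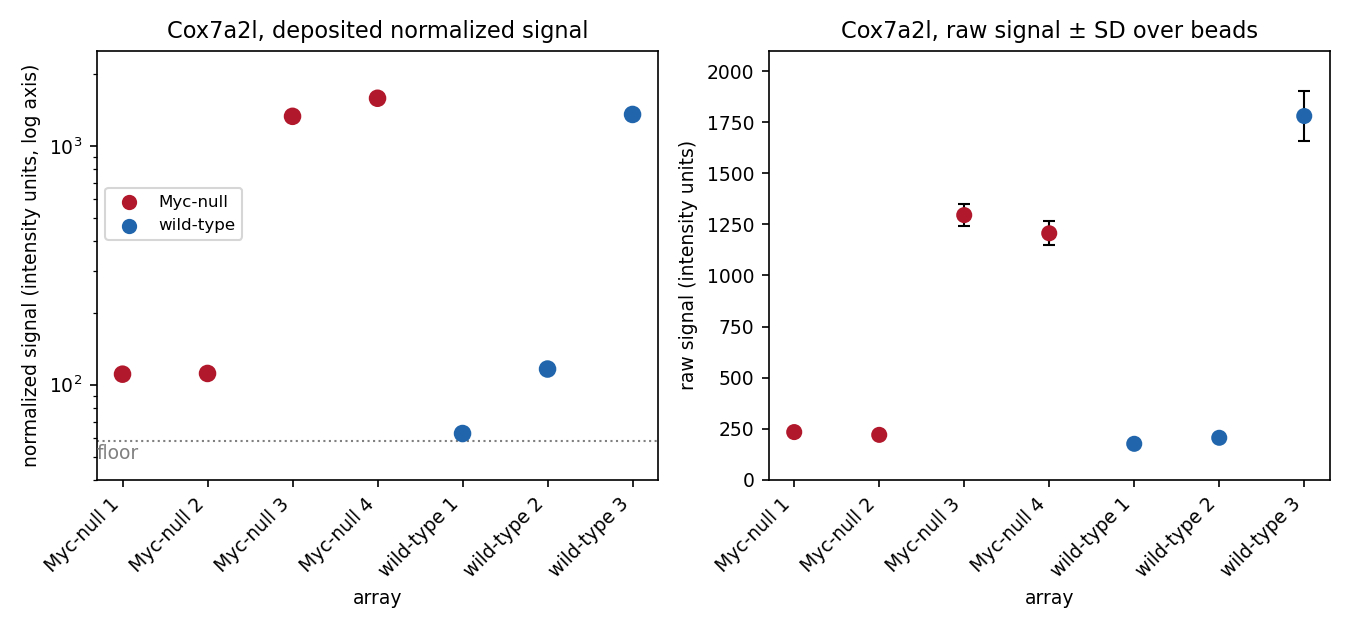
Cox7a2l signal on each of the 7 arrays, Myc-null in red and wild-type in blue. The left panel plots the deposited normalized signal on a log axis with the floor of 58.2 dotted, and the right panel the raw signal with its SD over beads. Myc-null 3, Myc-null 4 and wild-type 3 lie between 1329 and 1581 on the left, and the other 4 arrays at 116 or below.

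The low arrays were dim but not empty. A target was called detected at a score of at least 0.99, a score that nears 1 as a target stands out from the negative controls. Cox7a2l was detected on 7 of 7 arrays, with the lowest score, 0.994, on wild-type 1. The pattern is therefore a step between a high and a low level, and the data do not show the gene switched off. In wild-type 1 the signal lay just above the floor of 58.2 that was set before log2 was taken.

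The step was far wider than the spread between beads. The raw signal, before any normalization, was 233.1, 219.5, 1295 and 1206 in Myc-null hearts 1 to 4, against 175.7, 205.2 and 1780 in wild-type hearts 1 to 3. The bead SD was 13.7, 13.6, 54.9 and 58.8 in the Myc-null hearts, against 7.90, 12.4 and 123.5 in the wild-type hearts, over 28 to 40 beads an array. The 2 sides were 973.3 raw units apart, 7.88 times the largest of these bead SDs. Relative to its signal, the bead SD was 4.24% to 6.94%, where the median target detected on an array had 4.31% to 5.75%. Bead SDs describe 1 hybridised sample and not the spread between hearts.

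On the raw scale, which keeps the background signal, the step was 5.18-fold. Wild-type 3 was the highest array there, and Myc-null 4 was the highest after the authors' normalization. Every scaling tried put the same 3 arrays on the high side, and the step was 5.80-fold after median scaling, 6.47-fold after quantile normalization and 10.5-fold after neqc.

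Between genotypes, Cox7a2l averaged 783 ± 783 in Myc-null hearts (SD, n = 4) and 510 ± 730 in wild-type hearts (SD, n = 3). The log2 difference, 0.91, was smaller than the SD within either group, 2.14 in Myc-null and 2.35 in wild-type hearts. It was 2.24 without wild-type 3 and 0.02 without wild-type 1. The authors' deposited table gives Cox7a2l a difference score of 2.40, and 9083 of its 24048 targets (37.8%) have a score at least that large in size.

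Cox7a2l had the widest spread within genotypes of any target compared. Targets detected on at least 3 of 7 arrays numbered 9441, and their median SD within groups was 0.25 (log2). Cox7a2l had 2.23 and ranked first, just ahead of the next target at 2.21. The gene was chosen for its pattern over these same arrays, so a high rank follows from that choice.

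Steps of this shape were rare on the array. For each of the 9441 targets the arrays were put in order and the widest gap between neighbours was found. In 620 targets (6.57%) it was at least 2-fold. In 576 of these a single array stood apart, which was wild-type 3 in 535 and Myc-null 2 in 39. A further 36 had 2 arrays on the smaller side, and 8 had 3, as Cox7a2l did. Cox7a2l had the widest gap of the 44 targets with 2 or 3 arrays on the smaller side. Over all targets its rank was 3, behind 2 in which wild-type 3 alone was low. These were the proliferation marker Mki67 (16.3-fold) and an unnamed target. As Cox7a2l was chosen for such a step, its high ranks here follow from that choice too.

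**Figure D2:**
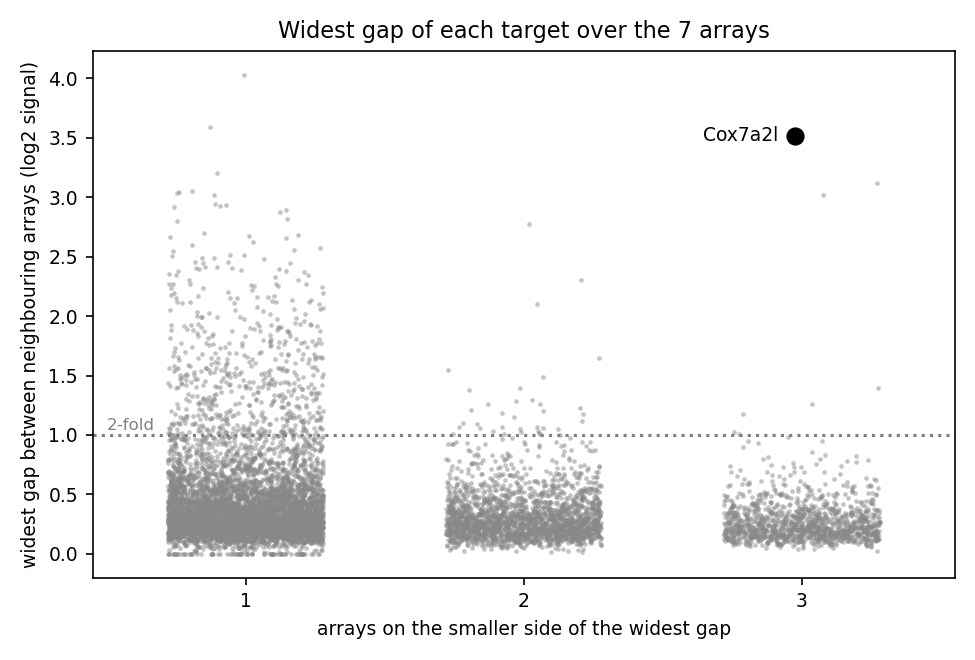
Widest gap between neighbouring arrays (log2 signal) for each of 9441 targets, by the number of arrays on the smaller side of the gap, with points spread sideways for legibility. Cox7a2l, at 3.51, is the highest point among targets with 2 or 3 arrays on the smaller side, and the dotted line marks a 2-fold gap.

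No other target shared the high and low arrays of Cox7a2l. The count of targets at least 2-fold higher on every high array than on every low one was 0 besides Cox7a2l. It was 0 as well at 4-fold or 1.5-fold, with no detection asked for, under each scaling tried and with wild-type 3 set aside. The mirror image, low where Cox7a2l was high, was also found in 0 targets at 2-fold. At any size, 194 of 9440 other targets (2.06%) had the 3 arrays above the 4, by at most 1.37-fold, and 96 (1.02%) had them below, by at most 1.21-fold. The widest of the 194 was an unnamed dim target. Tbx18, an epicardial transcription factor, came next at 1.34-fold, and Tarbp2, a partner of Dicer, had 1.25-fold.

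Tbx18 was dim in every heart. It had 69.9, 57.8, 101 and 93.8 in Myc-null hearts 1 to 4, against 67.5, 59.2 and 95.0 in wild-type hearts 1 to 3. The other epicardial markers did not follow this order. Wt1 had 478, 502, 559 and 482 in Myc-null hearts, against 515, 429 and 418 in wild-type hearts.

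The nearest counterparts of Cox7a2l in shape were 2 unnamed targets with other arrays high. The target scl16333.16_85-S had 653, 35.2, 66.3 and 24.5 in Myc-null hearts 1 to 4, against 575, 672 and 30.4 in wild-type hearts 1 to 3. The target scl17432.6_297-S had 1404, 69.1, 173 and 86.8 in Myc-null hearts, against 1808, 1539 and 108 in wild-type hearts. Both were high in Myc-null 1, wild-type 1 and wild-type 2, all low for Cox7a2l, with gaps of 8.68-fold and 8.12-fold. Myc-null 2 was low for them and for Cox7a2l alike, so their arrays are not the mirror image of the Cox7a2l arrays. Among the 44 targets the commonest split, in 24, was Myc-null 2 and wild-type 3 high together, as in Gdf10, a secreted growth factor of the BMP family. Those 2 arrays were on opposite sides for Cox7a2l.

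Genes whose levels went most nearly with Cox7a2l moved far less. Among 2419 tested units (named genes by their brightest target, and unnamed targets) with a range of at least 2-fold over the arrays, the 10 with the highest Pearson correlation to Cox7a2l over the 7 hearts were taken. With no limit on range, 20 of the 9066 units, Cox7a2l aside, had r of at least 0.9. The 10 had r from 0.79 to 0.93, and ranges of 2.02-fold to 3.27-fold, against 25.3-fold for Cox7a2l. With 7 points in 2 clusters, such an r says mainly on which side each heart lay. Only Crat, Tmem127 and Fastkd1 of the 10 had names.

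Crat, carnitine acetyltransferase, which moves acetyl groups between coenzyme A and carnitine in mitochondria, had the highest r of these 2419 (0.93, and 0.93 without wild-type 3). It had 584, 571, 939 and 886 in Myc-null hearts 1 to 4, against 444, 678 and 830 in wild-type hearts 1 to 3. The same 3 hearts were highest, but the step between the sides was 1.22-fold. Fastkd1, of a family of mitochondrial RNA-binding proteins, had 79.1, 64.8, 149 and 142 in Myc-null hearts, against 99.0, 91.1 and 122 in wild-type hearts (r = 0.84). Tmem127, a membrane protein of the endosomal system, had r = 0.88 and a range of 2.11-fold.

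**Figure D3:**
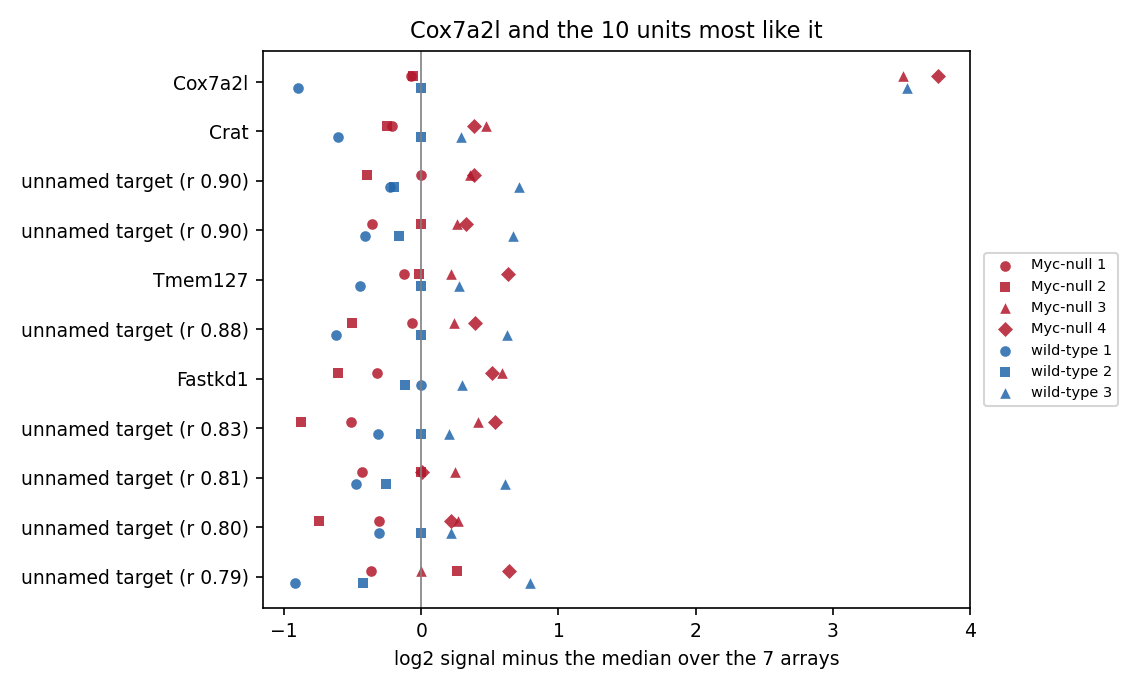
Log2 signal of Cox7a2l and of the 10 units most like it, each minus its own median over the 7 arrays. Myc-null arrays are red and wild-type arrays blue, with a symbol for each replicate number. Cox7a2l spreads over 4.66 (log2), and the 10 units over 1.02 to 1.71.

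The other subunits of cytochrome c oxidase did not show the step. Of 19 listed genes, 10 had a named target and all 10 were tested, Cox7a2l among them. The other 9 varied between 1.32-fold (Cox8a) and 3.42-fold (Cox7b) over the 7 hearts. Cox7a1, the muscle form of the COX7A subunit that Cox7a2l resembles, had 4923, 3721, 4721 and 8148 in Myc-null hearts 1 to 4, against 4505, 5237 and 4405 in wild-type hearts 1 to 3. Wild-type 3, high for Cox7a2l, was among the lowest here. Its log2 difference between genotypes was 0.13, and -0.088 without Myc-null 4. Cox7a2, the form found in most tissues, had no named target.

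By limma over 9066 units, with group as the only term, 0 of the 9 genes other than Cox7a2l passed an adjusted p of 0.05 between Myc-null and wild-type hearts, where 0% of all units did, and 485 units had an unadjusted p under 0.05. The Myc-null mean was above the wild-type mean in 6 of the 9 and below it in 3. The median of their log2 differences was 0.20, against 0.03 over all units. Cox7b, a small structural subunit, had 293, 339, 253 and 511 in Myc-null hearts, against 215, 277 and 149 in wild-type hearts. The groups overlapped, and its log2 difference of 0.70 (SE 0.30, limma adjusted p = 0.76) was 0.46 without wild-type 3. Ndufa4, first assigned to complex I and now counted with complex IV, differed by 0.41 (SE 0.29, limma adjusted p = 0.76), and by 0.10 without wild-type 3.

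The remaining subunits differed by less. Cox6c, Cox6b1 and Cox7c had log2 differences of 0.33, 0.23 and 0.20, and Cox6a1, Cox8a and Cox5b of -0.16, -0.13 and -0.10. Single hearts moved each by over 1.5 times. Without Myc-null 4 the differences of Cox6c, Cox6b1 and Cox7c were 0.11, 0.086 and 0.053, and without Myc-null 2 those of Cox6a1, Cox8a and Cox5b were -0.034, -0.065 and -0.012. Read on its brightest target, each of the 9 subunits other than Cox7a2l was highest in Myc-null 4. Wild-type 3 was the lowest for 4 of them and Myc-null 2 for 4. Groups did not overlap in 0 of these 9 genes, where 6.83% of all units had groups that did not overlap. Without Myc-null 4 the median difference of the 9 was 0.053, and without wild-type 3 it was 0.095.

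**Figure D4:**
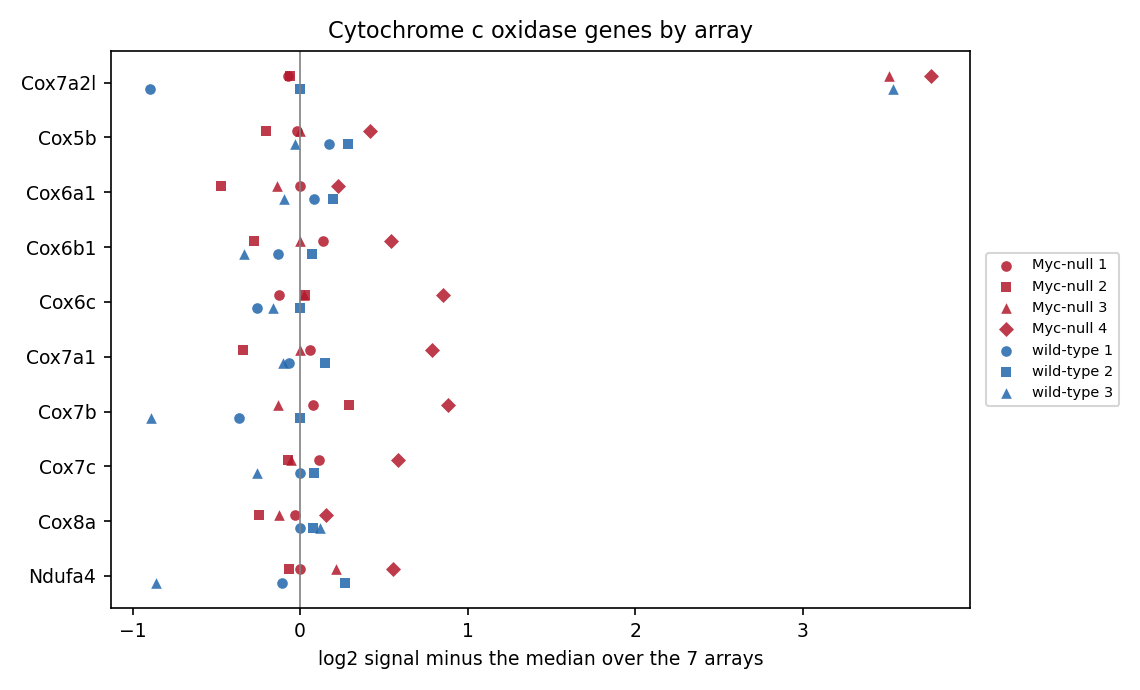
Log2 signal of Cox7a2l and the other 9 measured cytochrome c oxidase genes, each minus its median over the 7 arrays. Red symbols are Myc-null and blue symbols wild-type arrays, with a symbol for each replicate number. The 3 high arrays of Cox7a2l lie more than 3 above the rest, and no other gene has such a step.

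The lists of complex III with cytochrome c, and of complex I, gave 0 calls by limma, where 0% of all units were called. Of 16 listed genes of complex III and cytochrome c, 8 were tested. The Myc-null mean was above the wild-type one in 5 and below it in 3, and the median difference was 0.18 (log2). Uqcrb, a complex III subunit, averaged 3063 ± 559 in Myc-null hearts (SD, n = 4) and 2103 ± 792 in wild-type hearts (SD, n = 3), a log2 difference of 0.60 (0.32 without wild-type 3). Ttc19, which helps keep complex III working, differed by 0.30 (0.15 without wild-type 3), and was the 1 of the 8 whose groups did not overlap. Of 36 listed complex I genes, 18 were tested, 13 of them above and 5 below the wild-type mean in Myc-null hearts, with a median of 0.08. Ndufs4 and Ndufa5 had the smallest unadjusted p of these, with differences of 0.41 and 0.43 (0.21 and 0.15 without wild-type 3). Groups did not overlap for Ndufs4, 1 of the 18, and 6.83% of all 9066 units had groups that did not overlap. Over all units the Myc-null mean was above the wild-type mean in 4939 and below it in 4127, with a median of 0.03.

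Assembly factors of complex IV, which build the enzyme that Cox7a2l joins to complex III, also gave 0 calls. Of 24 listed, 6 were tested, 5 of them above and 1 below the wild-type mean in Myc-null hearts, with a median of 0.14. Cox20, a chaperone of a mitochondrially encoded subunit, averaged 1842 ± 291 in Myc-null hearts (SD, n = 4) and 1275 ± 417 in wild-type hearts (SD, n = 3), a log2 difference of 0.58 (0.27 without wild-type 3), and was the 1 of the 6 whose groups did not overlap. Over all units, 6.83% had groups that did not overlap, and the median difference was 0.03. Cox16 differed by 0.20. The smallest adjusted p in each of these 3 lists was 0.76.

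The genes near Cox7a2l on chromosome 17 that could be tested did not share its step. Of the 10 genes before and the 10 after it in the reference gene table, 5 were protein-coding. Only 2 were measured here, that is, had a named target that was tested. The rest may be read by unnamed targets, of which the array had 15155, or by targets too dim to test. Eml4, a microtubule-binding protein, had 195, 288, 317 and 213 in Myc-null hearts 1 to 4, against 217, 227 and 96.3 in wild-type hearts 1 to 3 (r = -0.27 with Cox7a2l). Mta3, a subunit of the NuRD chromatin complex, had 346, 347, 287 and 330 in Myc-null hearts, against 384, 349 and 419 in wild-type hearts (r = -0.24). Wild-type 3 was lowest for Eml4 and highest for Mta3.

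Reaching farther, up to 10 measured genes were taken on each side, Eml4 and Mta3 among them, a choice made after these values were seen. These 16 genes, 10 before and 6 after Cox7a2l, had r from -0.55 to 0.87. In 1 of the 16 the 3 high hearts of Cox7a2l were also the highest. This was Cdc42ep3, an effector of the GTPase Cdc42, 65 genes away, with 525, 560, 711 and 909 in Myc-null hearts, against 542, 640 and 709 in wild-type hearts. Its range was 1.73-fold. The nearer Slc8a1, the cardiac sodium-calcium exchanger, had r = 0.23.

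**Figure D5:**
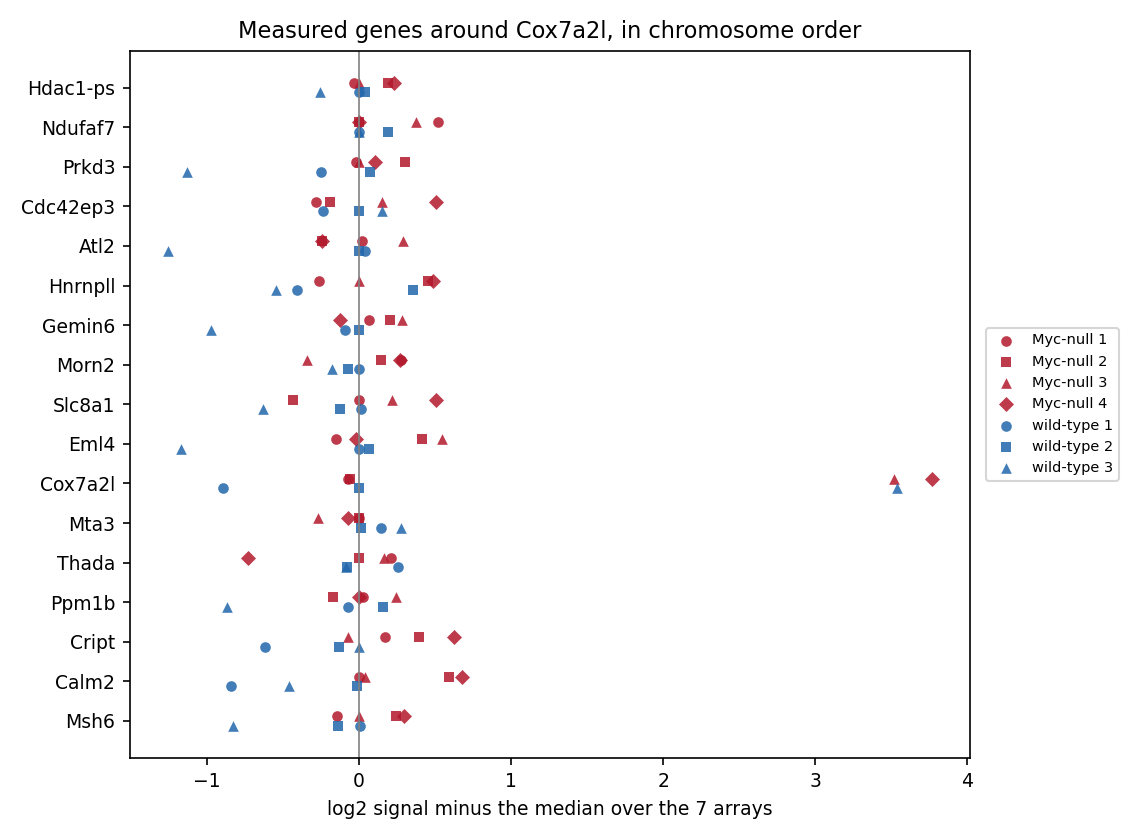
Log2 signal of Cox7a2l and of 16 genes with a named, tested target around it on its chromosome, 10 before and 6 after. Genes are in their order in the reference gene table, each minus its median over the 7 arrays. Myc-null arrays are red and wild-type arrays blue, with a symbol for each replicate number. Of the neighbours, Cdc42ep3 alone has the 3 high hearts of Cox7a2l on top, within a range of 1.73-fold.

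Other features of the samples were set beside the step. The 18S ribosomal RNA target read 1523 in Myc-null 2 and 2682 in wild-type 3, and 702 to 914 on the other 5 arrays, so its 2 highest arrays lay on opposite sides for Cox7a2l. Wild-type 3 stood apart from all others, with a highest correlation of 0.938 to another array across units, where the others reached 0.973 to 0.991. The step was as wide without it, with Myc-null 3 and Myc-null 4 then the only high hearts. All 7 arrays were on 1 chip, the Myc-null hearts at positions E to H and the wild-type hearts at A to C, and the high arrays were at G, H and C. Position and genotype cannot be told apart.

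The marker lists did not split in the same way. Of 4 heart muscle markers with a target, Myh7, Myl7 and Myh6 were detected in every heart, with Myh7, the beta myosin heavy chain, from 43607 to 72119 in Myc-null and from 42504 to 68137 in wild-type hearts. The summed signal of the 4 named heart muscle genes (of 14 listed) was highest in Myc-null 4 and lowest in wild-type 3, both high for Cox7a2l. Ryr2 was the 1 of these 4 detected on no array. Myh7 made up most of the sum, and the others did not follow it. Myl7 and Myh6 were lowest in wild-type 2, at 7628 and 792, and had 13793 and 1525 in wild-type 3. The 5 erythroid genes summed to 84731 to 122152 in Myc-null hearts and 77480 to 92921 in wild-type hearts, highest in Myc-null 2. Hba-a1, the brightest of the 5, was highest in wild-type 2 instead (68203, against 63230 in Myc-null 2). Summed signals ran from 266 to 308 in Myc-null and from 291 to 315 in wild-type hearts for 4 leukocyte genes, of which Ptprc and Cd68 were detected on no array. The 2 endothelial genes summed to 2165 to 2548 in Myc-null and 1064 to 2361 in wild-type hearts, lowest in wild-type 3. That low sum came from Emcn, at 448 in wild-type 3. Pecam1 had 616 there and was lowest in Myc-null 4, at 470. The 4 epicardial genes summed to 1172 to 1614 in Myc-null and 1182 to 1827 in wild-type hearts. Connective tissue genes, 5 in number with Postn detected on no array, summed to 4976 to 7535 in Myc-null and 6126 to 7758 in wild-type hearts. Col2a1 of cartilage ran from 93.7 to 1698 in Myc-null and from 105 to 381 in wild-type hearts, and Apoa1 of liver from 164 to 272 in Myc-null and from 164 to 245 in wild-type hearts. What part any of these had in the step was not tested. Skeletal muscle markers had 0 named targets.

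Sex, strain and the deletion itself could not be read from these targets. Of 5 sex-linked genes, Xist had no named target, and Ddx3y, Eif2s3y and Uty were detected on no array. Kdm5d, a Y-linked demethylase, was detected on Myc-null 4 and wild-type 1, which lay on opposite sides for Cox7a2l. Of 4 genes known to vary among inbred lines, Nnt and Wdfy1 were detected on no array and Glo1 and Alad had no named target. Myc had a normalized signal of -22.0, -23.9, -19.5 and -26.4 in Myc-null hearts 1 to 4, against -19.0, -31.8 and -3.16 in wild-type hearts 1 to 3, and was detected on no array. The genotype labels therefore have no check here.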

How the data were processed

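RNA of 4 Myc-null and 3 wild-type hearts was hybridised to Illumina mouse reference BeadChips. Per the labels, the authors normalized the arrays by the rank-invariant method in BeadStudio, version 1.5.0.34 per the submitters' processing notes. The deposited matrix holds this normalized signal intensity, which can be negative. Per the file headers (BeadStudio 1.5.1.3), the per-array files hold raw intensity without normalization, bead SD, bead number and a detection score, a fraction near 1 for targets brighter than the negative controls. The authors' deposited table holds a difference score per target. No genome build is given in the sources used here.

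Normalized signals below 58.2 were set to that floor (each array's 5th percentile of detected targets, median of the 7), and log2 was taken, so that folds of dim genes are understated. Of 24048 targets, 4 bacterial controls were left out and 9441 were detected on at least 3 arrays. A gene was represented by its brightest target, which gave 9066 units (3396 named). Identifiers with 1 or 2 leading zeros were named through NCBI gene identifiers (8884 of 9523 matched, 93.3%; assembly GRCm38.p6), and 9 through accessions.

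The genotypes were fitted in limma 3.58.1 under R 4.3.3 (2-sided, Benjamini-Hochberg adjustment), which was tested on simulated data. The high arrays are those above the widest gap in the Cox7a2l signals. The genes named are Cox7a2l, the measured cytochrome c oxidase genes, the 2 genes with the smallest p of 3 related lists, targets sharing the Cox7a2l arrays and the 10 most like it, its measured neighbours, and lists of line-variable, sex-linked and marker genes. Other on-off targets, the widest of the same order and the farther neighbours were named after their values were seen. The gene and the lists were chosen with earlier results of these data known. Scalings, floors, filters, single arrays left out and a replicate block were tried as alternatives. The number of arrays limits the precision, and as nothing says that samples came from separate litters, p-values measure the spread between these 7 samples.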

Additional observations from a re-analysis of the deposited data

Results flagged for a closer look

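Among 51 results tested in the 4 Myc-null hearts, 3 had a single heart whose gap to its nearest neighbour, as a share of the whole range, passed Dixon's 95% limit for 4 samples. Chance passes it in about 1 of 20. Cox6c, a cytochrome c oxidase subunit, had a log2 signal of 14.45 in Myc-null 4, above the other Myc-null hearts. Ttc19, of complex III, had a log2 signal of 9.28 in Myc-null 4, also above the rest. Col2a1, the 1 measured gene of the cartilage list, had a signal of 1698 in Myc-null 2. It was judged on the signal without log2, unlike Cox6c and Ttc19, so its flag depends on that scale. Cox7a2l itself was not among the 3 flagged results, since its 4 Myc-null hearts lay as 2 low and 2 high.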

How the results depend on the processing

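The high and low hearts of Cox7a2l were the same under all 6 other scalings and floors. The log2 gap of 3.51 was smaller where raw signals keep the background, at 2.69 after quantile normalization, 2.54 after scaling to a common median and 2.37 without scaling. With neqc it was 3.40, and with floors of 2 times and 0.5 times the main one 3.51. The count of 0 other targets sharing the arrays was 0 in each alternative run. The difference of Cox7a2l between genotypes ran from 0.02 to 2.24 with single arrays left out, from 0.41 to 0.79 under other scalings. It was 2.85 without both wild-type 3 and Myc-null 2, a choice made after seeing the data. Under every alternative run, limma called 0 units, with 485 at an unadjusted p under 0.05 and 188 to 718 in the alternatives. The median difference of the 10 cytochrome c oxidase genes, Cox7a2l included, was 0.22 and ran from 0.07 to 0.32 with single arrays left out. The labels do not say whether a replicate number pairs samples. Deviations of same-numbered arrays correlated at 0.17, -0.26 and -0.31, which cannot settle it. With a replicate block, Myc-null 4 had no partner and added nothing to the group difference, so the differences equal those without Myc-null 4. Cox7a2l differed by 0.25 there, the list median was 0.07 and limma called 0 units with the block. Cox7a1 changed sign without Myc-null 4, to -0.088, and the block gives that same estimate rather than a separate check. It reached 0.29 with other arrays left out. Why Myc-null 4 moved it was not tested. Signals near the floor, such as Cox7a2l in wild-type 1, fix the low level only loosely.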
